A study of Mus musculus with 16 samples.

Results

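Ventricles of C57BL/6JOlaHsd mouse pups at postnatal day 9 (P09, 4 libraries) were compared with ventricles at postnatal day 1 (P01, 4 libraries), which together make 8 of the 16 small RNA libraries of a time series. The libraries were taken by the day in their column names. The pups were male and female, each gave 1 library, and the labels name no treatment and no mutation in either group, so that the 2 groups differ by age alone as far as the labels say. The 4 libraries at P04 are given here as the step between, and the 4 at P23 entered the fit without being described. All P09 values below are in the order of libraries 2, 3, 4 and 5, and all P01 values in the order of libraries 1, 5, 6 and 8, which are the animal numbers in the count table.

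The mouse heart can regrow ventricle tissue after injury in the days after birth and loses this capacity within the following week. Over the same days cardiomyocytes stop dividing, replace fetal with adult isoforms of sarcomere proteins and turn from glucose and lactate to fatty acids as fuel, while their mitochondria multiply. The kit used here adds a poly(A) tail to short RNAs of any kind, so that fragments of mRNA, rRNA and mitochondrial RNA were counted beside snoRNAs, which guide the modification of rRNA, Y RNAs, vault RNAs and miRNAs. Counts are per gene and do not show which part of a transcript the fragments came from.

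The total count was 3935207 to 5505319 per library at P09 and 2301587 to 2904097 at P01, so that P09 was the more deeply sequenced group. Normalized counts are counts per library of 4123446 counts after TMM scaling, a scaling that takes most genes as unchanged, and means of them are given ± SD over 4 libraries. The TMM factors were 1.11 to 1.36 at P09 and 0.945 to 1.01 at P01. The highest factor was that of P09 library 2, which also differed most from the other P09 libraries. All 10 defining cardiomyocyte markers were present in each of the 8 libraries, with no value under 969 normalized counts at P09 and under 549.6 at P01. Xist exceeded the Y-linked counts in 1 of 4 P09 libraries and in 3 of 4 P01 libraries, so that sex was not balanced between the ages, and a fit with sex as a covariate was run beside the main one. A P23 library held counts of both (255 of Xist and 150 of Y-linked genes).

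At P09, 664 of 10742 tested genes (6.18%) were higher than at P01 and 1231 (11.5%) were lower, at an adjusted p under 0.01 from edgeR's quasi-likelihood test and a fold change over 1.8. Without miRNA genes the counts were 657 higher and 1142 lower of 10536. The P09 and P01 libraries did not overlap for 1677 genes that were higher (15.6%) and 1916 that were lower (17.8%). With total counts in place of TMM, under which the all-gene median shifted by 0.30 (log2), 62.1% of the calls were rises (1421 higher and 869 lower), against 35.0% in the TMM fit. With no filter on low counts 1089 were higher and 1315 lower over all genes. Among the genes tested in the TMM fit, that setting gave 1038 higher and 1007 lower (50.8% rises). Rises were the more frequent direction under total counts, while with no filter falls stayed more frequent over all genes. List counts below are set beside the 6.18% and 11.5% of all genes. The share of all genes at an unadjusted p under 0.05 is not given here. Counts of list members at that p therefore have no background and are descriptions. In the lists given below with 0 calls by edgeR in 1 direction, other than immediate early genes, at most 4 members had an unadjusted p under 0.05 in that direction, and DESeq2 called 0 of them.

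Changes accumulated in steps. Of the tested genes, 115 (1.07%) were higher and 444 (4.13%) lower in P04–P01 (5.2% either way), and 150 (1.4%) were higher and 398 (3.71%) lower in P09–P04 (5.1% either way). The 664 genes that were higher at P09 had a median log2 fold change of 0.64 in P04–P01 and of 0.59 in P09–P04, and the 1231 lower genes had -0.83 and -0.80, against 0.01 and -0.01 over all tested genes. Both steps share libraries with P09–P01, by which these genes were picked, so the medians describe the genes and test nothing.

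**Figure D1:**
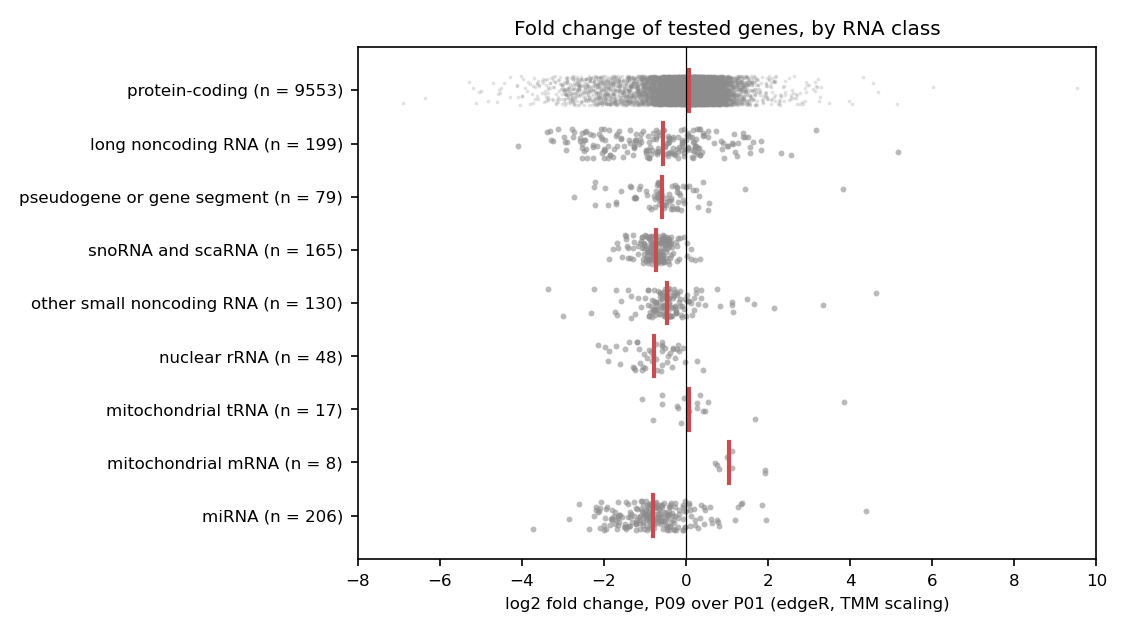
Log2 fold change of tested genes in P09–P01 by RNA class (x axis, edgeR with TMM scaling); each point is a gene and the red bar is the class median. The median is 1.06 for the 8 mitochondrial mRNA genes, 0.07 for the 9553 protein-coding genes, -0.74 for the 165 snoRNA and scaRNA genes and -0.80 for the 206 miRNA genes.

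By RNA class, mitochondrial mRNA took 5.57%, 4.67%, 4.57% and 3.94% of the counts in the P09 libraries, against 1.98%, 1.36%, 1.67% and 1.73% in the P01 libraries. No library overlapped, the P09 mean was 2.78 times that at P01, and the P04 mean was 2.15% ± 0.452 (SD, n = 4). snoRNA and scaRNA genes took 6.32%, 7.75%, 7.52% and 8.74% at P09, against 9.88%, 9.88%, 11.8% and 11.2% at P01, a ratio of 0.709, and 10.0% ± 1.08 at P04. Mitochondrial rRNA took 18.6% ± 0.516 at P09 and 15.0% ± 0.945 at P01, and mitochondrial tRNA 3.06% ± 0.151 and 2.30% ± 0.151 (SD, n = 4 each). For each of these 4 classes the two-sided exact permutation test gave p = 0.0286, below which 4 libraries against 4 cannot go, with an adjusted p = 0.0571 over the 8 classes compared. The miRNA share was 2.59% ± 0.374 at P09 and 3.36% ± 0.335 at P01 (exact permutation p = 0.0571, adjusted p = 0.0914). Nuclear rRNA (40.0% ± 2.20 and 42.8% ± 2.08, exact permutation p = 0.114), protein-coding genes (18.1% ± 2.07 and 17.8% ± 0.727, exact permutation p = 0.857) and long noncoding RNA (1.44% ± 0.474 and 1.36% ± 0.0768, exact permutation p = 0.971) had higher p-values. No class had an adjusted p under 0.05. In tissue as a whole, fewer cells of a type and less of an RNA per cell cannot be told apart, here and in each result below.

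**Figure D2:**
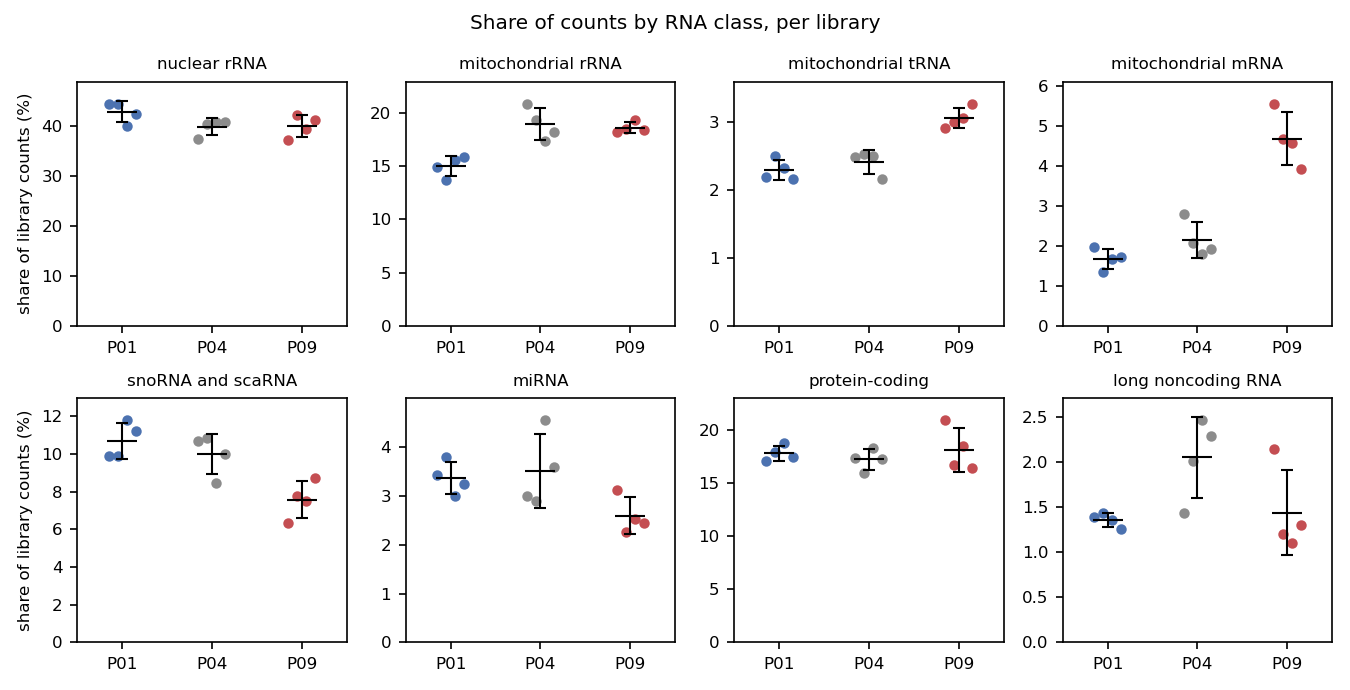
Share of each library's counts by RNA class (y axis, percent, from 0) at P01, P04 and P09; points are libraries, and bars are the mean and SD of 4. Mitochondrial mRNA lay between 3.94% and 5.57% at P09 and between 1.36% and 1.98% at P01, and snoRNA and scaRNA genes between 6.32% and 8.74% at P09 and between 9.88% and 11.8% at P01.

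The myosin heavy chains of the fetal and the adult ventricle moved in opposite directions. Myh7, the beta myosin heavy chain of the fetal mouse ventricle (chromosome 14, 54970684 to 54994626 of GRCm38.p6), had 43.0, 32.8, 42.8 and 58.1 normalized counts in the P09 libraries, against 3887, 3478, 3284 and 3796 in the P01 libraries. The groups lay far apart (log2 fold change -6.35 with a standard error of 0.23, adjusted p = 3.58e-19 from edgeR), and the P04 mean of 736 ± 115 (SD, n = 4) lay between them, with a step of -2.30 in P04–P01 and of -4.05 in P09–P04. Myh6, the alpha heavy chain of the adult mouse ventricle, had 11396, 10388, 11162 and 9342 normalized counts in the P09 libraries, against 3245, 3142, 3460.1 and 3277 in the P01 libraries, again without overlap and with a P04 mean of 6645 ± 491 (log2 fold change 1.69 with a standard error of 0.15, adjusted p = 2.37e-10 from edgeR). The promoters of both chains are shown because they are the pair with opposite changes, from 250 bases before to 50 after the annotated start as RefSeq gives them on GRCm38.p6, both on the minus strand.
Myh7 promoter, chr14:54994577-54994876: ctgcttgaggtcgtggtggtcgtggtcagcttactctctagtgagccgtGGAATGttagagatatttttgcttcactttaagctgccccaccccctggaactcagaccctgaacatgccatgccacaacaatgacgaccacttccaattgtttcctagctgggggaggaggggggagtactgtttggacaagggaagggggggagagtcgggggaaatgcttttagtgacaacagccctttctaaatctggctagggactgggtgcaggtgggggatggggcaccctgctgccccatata
Myh6 promoter, chr14:54966558-54966857: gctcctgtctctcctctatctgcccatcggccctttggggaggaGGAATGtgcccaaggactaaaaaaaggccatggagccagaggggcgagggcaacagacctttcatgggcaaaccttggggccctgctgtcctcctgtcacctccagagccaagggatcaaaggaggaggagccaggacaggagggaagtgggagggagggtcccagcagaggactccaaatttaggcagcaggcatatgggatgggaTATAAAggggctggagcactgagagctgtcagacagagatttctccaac
Capitals mark GGAATG, the core of the M-CAT element of muscle promoters, and in Myh6 also TATAAA, the TATA box. Both were searched on both strands, and they do not overlap here. GGAATG stood in 14.7% and TATAAA in 13.6% of all 32851 promoters of this length. GGAATG is thus present in both promoters. Myh7 has 2 annotated starts, and the one further upstream is shown.

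Of 18 tested genes of fetal and neonatal muscle, 5 fell and 2 rose (median -0.32), with 4 rises under total counts. Tnni1, the slow skeletal troponin I of the fetal heart, had 218, 214, 267 and 233 normalized counts in the P09 libraries, against 862, 811, 899 and 927 in the P01 libraries (log2 fold change -1.91 with a standard error of 0.16, adjusted p = 5.91e-11 from edgeR). Most of its fall came in P09–P04 (-1.60, against -0.31 in P04–P01). Myl4, the atrial and fetal essential light chain, fell to 22.7 ± 11.3 at P09, against 131 ± 19.8 at P01 (log2 fold change -2.58 with a standard error of 0.42, adjusted p = 3.31e-04 from edgeR). Its P04 mean was 28.3, so that the fall lay mostly in the P04–P01 step (-2.22). Myl4 is also an atrial marker, and the summed level of all 10 listed atrial markers was 231 to 913 at P09 and 633 to 862 at P01. Nppa, the atrial natriuretic peptide, had 117, 323, 177 and 768 in the P09 libraries and 441, 353, 392 and 437 in the P01 libraries (adjusted p = 0.771 from edgeR). The part of atrial tissue in the fall of Myl4 was not tested. Hcn4, a pacemaker channel, and Lin28b, which blocks let-7 maturation, had log2 fold changes of -1.74 and -2.01 (adjusted p = 2.03e-05 and 8.77e-05 from edgeR). The 2 rises were those of Acta1, skeletal actin, at 147 ± 36.9 at P09 and 27.1 ± 5.48 at P01 (log2 fold change 2.41 with a standard error of 0.22, adjusted p = 2.06e-09 from edgeR), and that of Ttn, the giant spring protein titin, with a log2 fold change of 1.04. Mir208b, the miRNA within Myh7, had 25.4, 16.9, 17.1 and 27.3 normalized counts in the P09 libraries, against 129.9, 116, 86.1 and 117 in the P01 libraries, a fall of the same direction (log2 fold change -2.36 with a standard error of 0.22, adjusted p = 2.20e-09 from edgeR).

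Adult muscle genes rose in 13 of 28 cases (46.4%, against 6.18% of all genes) and fell in 0, with a median of 0.80. Under total counts 22 rose, and with no filter on low counts 18. The libraries did not overlap for 26 that were higher and for 2 that were lower. Ckmt2, mitochondrial creatine kinase, had 400.2, 428, 411 and 416 normalized counts in the P09 libraries, against 104, 106, 109 and 104 in the P01 libraries (log2 fold change 1.97 with a standard error of 0.14, adjusted p = 1.94e-12 from edgeR). Its P04 mean of 89.7 did not exceed the P01 mean of 106, so that the rise lay in the P09–P04 step (2.20, adjusted p = 1.09e-12 from edgeR). Myom2, a protein of the M-band in adult ventricle, had 532, 434, 598 and 401 normalized counts in the P09 libraries, against 159, 146, 109 and 179 in the P01 libraries (log2 fold change 1.73 with a standard error of 0.20, adjusted p = 7.45e-07 from edgeR). Mb, the oxygen store myoglobin, had 2386 ± 122 at P09 and 737 ± 37.5 at P01 (SD, n = 4 each, log2 fold change 1.69 with a standard error of 0.15, adjusted p = 1.21e-10 from edgeR). Calcium handling genes were among the rises, with Atp2a2, the calcium pump of the sarcoplasmic reticulum, at 1.45, Hrc, its calcium store protein, at 1.65 and the release channel Ryr2 at 0.92, a call lost without P09 library 2, at a log2 fold change of 0.79. Tnnt2 (-0.12, adjusted p = 0.565 from edgeR) and Tnni3 (0.54, adjusted p = 0.00197 from edgeR) did not reach both thresholds. Across the list the median step was 0.27 in P04–P01, with 1 rise, and 0.56 in P09–P04, with 4. Xirp2, an actin-binding protein of the intercalated disc that stands in no list and was picked after its values were seen, had 287, 276, 212 and 309 normalized counts in the P09 libraries, against 13.6, 17.1, 9.88 and 24.9 in the P01 libraries (log2 fold change 4.04 with a standard error of 0.22, adjusted p = 2.49e-13 from edgeR).

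**Figure D3:**
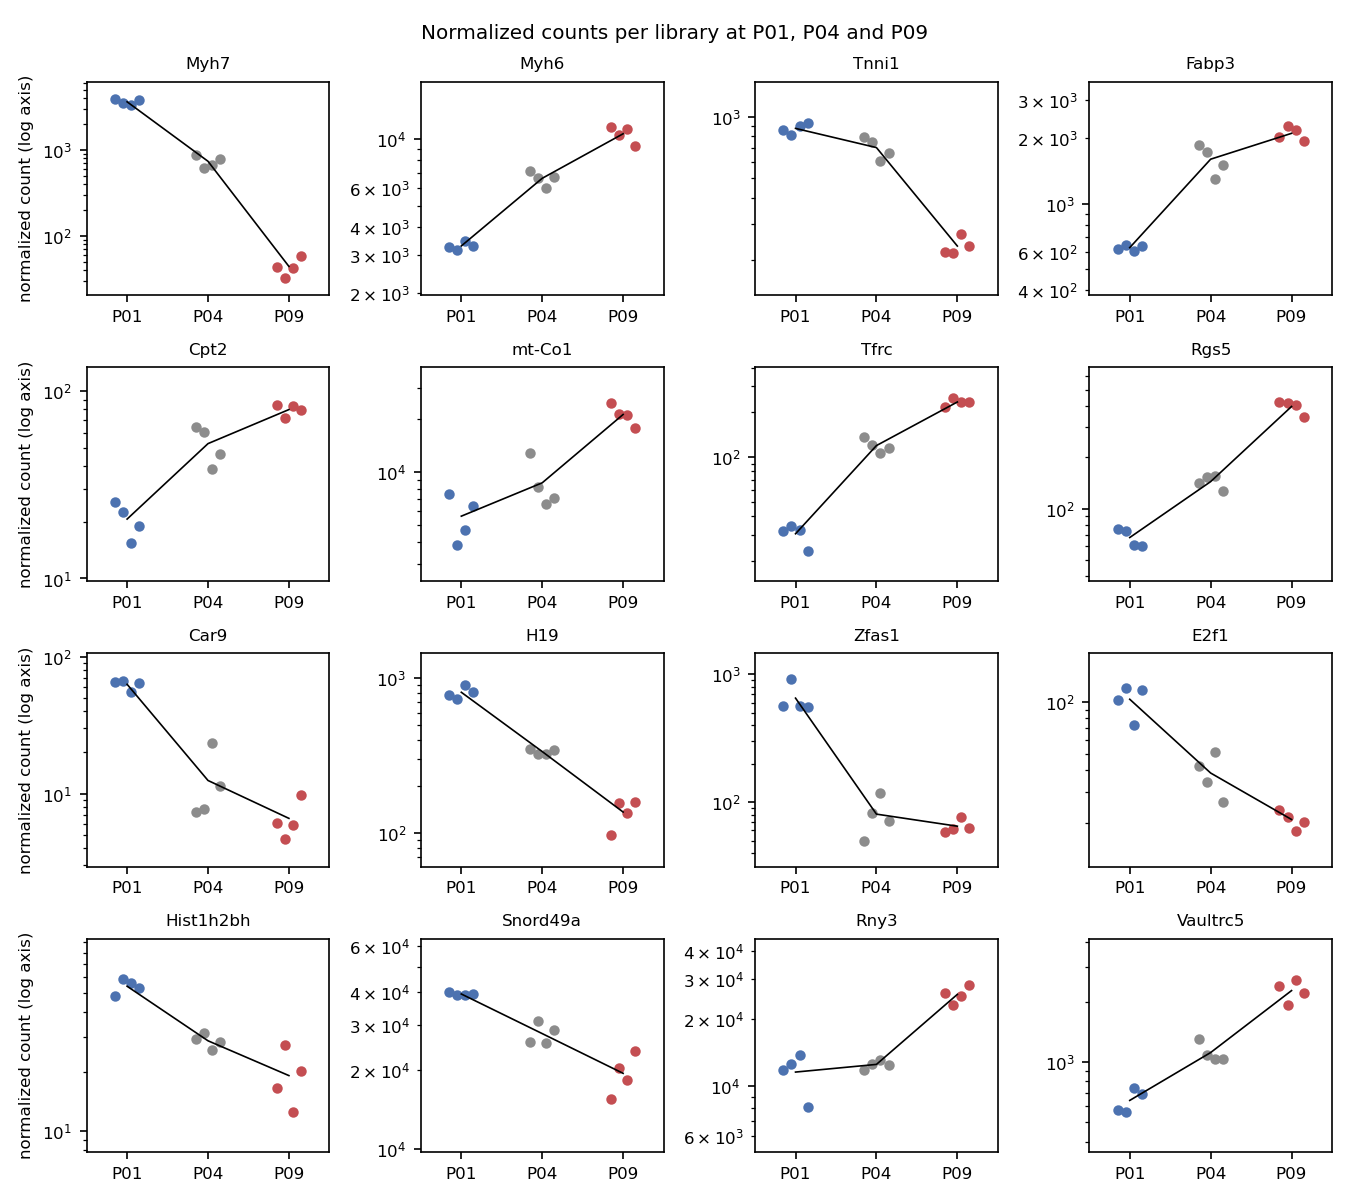
Normalized counts (y axis, log scale, each panel with its own range) of 16 genes in each library at P01, P04 and P09; the line joins the means of 4 libraries. Myh7 falls to a mean of 44.2 at P09, against 3611 at P01, Cpt2 has a mean of 79.7 at P09, against 20.8 at P01, and Rny3 has 12516 at P04 and 25688 at P09.

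Fatty acid oxidation had the most called members among the metabolic lists, 20 of 28 higher (71.4%) and 0 lower, with a median of 1.13. Fabp3, the fatty acid carrier of heart cytosol, had 2034, 2283, 2177 and 1940.5 normalized counts in the P09 libraries, against 618, 646, 607 and 641 in the P01 libraries (log2 fold change 1.75 with a standard error of 0.14, adjusted p = 5.30e-11 from edgeR). Its P04 mean of 1603 ± 251 lay nearer to P09 than to P01. Hadha, of the trifunctional protein, had a log2 fold change of 1.48, Acadvl, the very long chain dehydrogenase, 1.49 and Cpt2, which completes entry into the matrix, 1.95. Acsl1, which links fatty acids to coenzyme A, had 1.60 and the uptake receptor Cd36 1.15. Plin5, a lipid droplet protein of oxidative tissue, had 2.10 and Ucp3, an uncoupling protein of muscle mitochondria, 2.77, both from few counts at P01 (8.31 ± 2.31 and 2.04 ± 1.16). In this list 12 members rose and 0 fell in P04–P01 (median 0.66), and 0 rose and 1 fell in P09–P04 (median 0.40). The hexamer AGGTCA of nuclear receptors stood in a promoter of 7 of the 23 tested members with a RefSeq promoter (30.4%) and in that of 5 of 16 that rose, against 18.1% of 27025 genes.

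Of 27 tested genes of the mitochondrial genome, 7 rose and 0 fell, namely 5 of 8 mRNAs, 2 of 17 tRNAs and 0 of 2 rRNAs. mt-Co1, a catalytic subunit of cytochrome c oxidase, had 24759, 21378, 21258 and 17799 normalized counts in the P09 libraries, against 7456, 3825, 4692 and 6416 in the P01 libraries (log2 fold change 1.93 with a standard error of 0.23, adjusted p = 3.66e-07 from edgeR). mt-Nd5, of complex I, had 35907, 30421, 31549 and 26268 normalized counts in the P09 libraries, against 10453, 5993, 7245 and 8843 in the P01 libraries (log2 fold change 1.93 with a standard error of 0.21, adjusted p = 8.94e-09 from edgeR). mt-Cytb, mt-Nd4 and mt-Nd3 had log2 fold changes of 1.12, 1.13 and 1.00. For mt-Nd1, with 27146 ± 2012 at P09, 13694 ± 2095 at P04 and 16744 ± 1573 at P01, and mt-Nd2, with a log2 fold change of 0.81, the fold stayed under 1.8 (adjusted p = 0.00101 and 2.59e-04 from edgeR). The rRNAs mt-Rnr1 and mt-Rnr2 had -0.08 and 0.10 (adjusted p = 0.73 and 0.688 from edgeR). Their share of all counts, which is not scaled by TMM, was higher at P09 (above). Among the tRNAs, mt-Tr rose (4353, 4439.9, 4626 and 3742 normalized counts in the P09 libraries, against 1481, 1260.4, 1400.4 and 1249 in the P01 libraries, log2 fold change 1.67). mt-Th had 71 counts over the P09 libraries and 2 over those at P01, a ratio of 16.5 with a 95% counting interval of 4.41 to 139 (exact Clopper-Pearson). In P04–P01 the median of the 8 mRNAs was 0.14 with 0 rises, and in P09–P04 it was 1.00 with 6. Among 45 nuclear genes of the respiratory chain 1 rose and 0 fell (median 0.42), and 33 had P09 libraries above each P01 library. At an unadjusted p under 0.05 from edgeR, 35 were higher and 1 lower, a count without a share of all genes beside it. The count of rises rested on the settings, with 12 under total counts, 7 with no filter on low counts and 4 without P09 library 2. The gene called was Ndufb10 of complex I, with 308, 307, 303 and 273 normalized counts in the P09 libraries, against 186, 152, 139.8 and 139 in the P01 libraries (log2 fold change 0.95 with a standard error of 0.13, adjusted p = 9.50e-07 from edgeR). Slc25a4, the adenine nucleotide carrier, and Atp5b, of the ATP synthase, had 0.35 and 0.50. Among 74 mitochondrial ribosomal protein genes, 1 rose, Mrpl1 (0.87), a call lost without P09 library 2 or 3 or P01 library 5, 6 or 8, at a log2 fold change of 0.79 to 0.89. Under total counts 5 of the 74 rose and with no filter 3.

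Glycolysis genes split, with 4 higher and 2 lower of 18 and a median of 0.05. Pfkm, muscle phosphofructokinase, had 168 ± 29.6 at P09 and 73.5 ± 10.2 at P01 (log2 fold change 1.19 with a standard error of 0.16, adjusted p = 4.13e-07 from edgeR). Gapdh, Eno3 and Hk2 had log2 fold changes of 1.09, 0.91 and 0.93. The falls were those of the membrane carriers of this pathway, Slc2a1, the fetal glucose transporter GLUT1, with 31.4, 29.0, 26.3 and 22.0 normalized counts in the P09 libraries, against 58.9, 102, 66.3 and 80.6 in the P01 libraries (log2 fold change -1.47 with a standard error of 0.20, adjusted p = 5.74e-07 from edgeR), and Slc16a3, a lactate exporter, with 5.92 ± 2.61 and 19.6 ± 5.91 (log2 fold change -1.80 with a standard error of 0.36, adjusted p = 2.20e-04 from edgeR). In P09–P04 4 members rose, Pfkm and Gapdh among them, and 0 fell, and in P04–P01 0 rose and 2 fell (medians 0.35 and -0.37). The P04 means were 89.3 for Pfkm and 65.0 for Gapdh, beside P01 means of 73.5 and 57.3. Slc2a4, the insulin-dependent transporter GLUT4 of adult muscle, rose by 1.13 on the log2 scale.

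Genes of the hypoxia response were lower in 5 and higher in 2 of 22 cases (median -0.06, a value that turned to 0.24 under total counts and to 0.10 with no filter on low counts, each with 5 higher and 4 lower). Car9, a carbonic anhydrase known as a target of hypoxia-inducible factors (chromosome 4, 43507026 to 43513729), had 6.06, 4.68, 5.92 and 9.69 normalized counts in the P09 libraries, against 64.9, 66.3, 55.1 and 64.5 in the P01 libraries (log2 fold change -3.24 with a standard error of 0.31, adjusted p = 1.85e-09 from edgeR). The fall lay mostly in P04–P01 (-2.35, against -0.89 in P09–P04). Hif3a, a subunit of that factor family, had 1.51 ± 1.40 at P09 and 18.2 ± 4.97 at P01 (log2 fold change -3.40 with a standard error of 0.60, adjusted p = 6.01e-05 from edgeR). P4ha2, a collagen prolyl hydroxylase, had -2.01 and Mxi1, an antagonist of Myc, -0.97, beside Slc2a1 above. The call of Mxi1 was lost without P01 library 6, at a log2 fold change of -0.84. Higd1a, of the mitochondrial inner membrane (1.21), and Hk2 rose. In P04–P01 5 members fell and 0 rose, and in P09–P04 1 fell and 1 rose. The Car9 promoter is shown for the hypoxia response core, on the plus strand and from RefSeq on the same build.
Car9 promoter, chr4:43506776-43507075: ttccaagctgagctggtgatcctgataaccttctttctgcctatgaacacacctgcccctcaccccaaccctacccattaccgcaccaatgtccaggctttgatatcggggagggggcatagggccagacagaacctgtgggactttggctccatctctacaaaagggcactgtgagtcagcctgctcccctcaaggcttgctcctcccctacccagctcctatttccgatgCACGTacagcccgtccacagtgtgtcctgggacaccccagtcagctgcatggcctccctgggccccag
Capitals mark the match to ACGTG, which lies here on the other strand. ACGTG stood in a promoter of 16 of the 20 tested members with one (80.0%) and of 4 of the 5 that fell, against 21.8% of 27025 genes. This motif is the known binding core of the factors that define the list, and the share is a description.

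Genes of cell division were lower in few cases by this test. Of 35 genes of mitosis and cytokinesis 5 fell (14.3%, against 11.5% of all genes) and 0 rose, with a median of -0.53, or -0.23 under total counts. At an unadjusted p under 0.05 from edgeR, 21 were lower and 0 higher, a count without a share of all genes beside it. Leaving out 1 library at a time gave 1 to 7 falls, DESeq2 3, and total counts or no filter on low counts 1 each. P09 libraries lay under each P01 library for 13 of the 35 and above for 0, against 17.8% and 15.6% of all genes. The summed level of the 35 was 1221 to 1522 normalized counts at P09, 1394 to 1671 at P04 and 1975 to 2283 at P01. Birc5, or survivin, had 8.82, 8.43, 11.8 and 11.5 normalized counts in the P09 libraries, against 33.2, 26.5, 12.7 and 13.2 in the P01 libraries (log2 fold change -1.05 with a standard error of 0.30, adjusted p = 0.00628 from edgeR). This call was lost without P09 library 2 or 3 or P01 library 1 or 5, at a log2 fold change of -0.98 to -0.72. Ccnb2, a mitotic cyclin, had 9.37, 10.3, 18.4 and 25.5 normalized counts in the P09 libraries, against 36.2, 34.1, 29.6 and 27.9 in the P01 libraries (log2 fold change -1.02 with a standard error of 0.26, adjusted p = 0.00237 from edgeR). Its call was lost without P09 library 2 or 3 or P01 library 1, at a log2 fold change of -0.94 to -0.78. Ube2c, a ubiquitin ligase partner of anaphase, and Aspm, of the spindle pole, had -0.89 and -0.87. The call of Ube2c was lost without P09 library 2 or P01 library 1 or 6, at a log2 fold change of -0.85 to -0.72, and that of Aspm lost without P09 library 2 or 3 or P01 library 5 or 8, at a log2 fold change of -0.85 to -0.80. Racgap1, of the contractile ring, had 24.8, 30.0, 34.9 and 38.8 normalized counts in the P09 libraries, against 66.4, 345, 57.9 and 389 in the P01 libraries, with P01 libraries 5 and 8 far above libraries 1 and 6 (log2 fold change -2.74). Its call was lost with sex as a covariate, at -2.37, and in a fit of the P09 and P01 libraries alone, at -2.77. Mki67 (143 ± 23.9 at P09 and 171 ± 28.4 at P01, adjusted p = 0.179 from edgeR), Top2a (log2 fold change -0.61, a fold under 1.8) and Cdk1 (-0.72, adjusted p = 0.0101 from edgeR) were not called. The motif TTTGAA, the cell cycle homology region of mitotic promoters, stood in 23 of 29 tested members with a promoter (79.3%), against 20.2% of 27025 genes.

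Among 26 genes of DNA replication 2 fell and 1 rose (median -0.17, which turned to 0.13 under total counts). Without 1 library 1 to 3 fell and 0 to 2 rose, and DESeq2 called 2 falls and 0 rises. The summed level of all 29 listed replication genes, tested or not, was 565 to 676 normalized counts at P09, 738 to 809 at P04 and 806 to 906 at P01. E2f1, the transcription factor that drives entry into S phase, had 23.7, 21.5, 17.8 and 20.3 normalized counts in the P09 libraries, against 103, 119, 73.4 and 117 in the P01 libraries (log2 fold change -2.29 with a standard error of 0.21, adjusted p = 3.33e-10 from edgeR), with 38.6 ± 10.8 at P04. Mcm7, of the replicative helicase, had -0.87, a call lost without P09 library 2 or 4 or P01 library 1 or 5, at a log2 fold change of -0.83 to -0.71. Mcm2 of the same complex had 34.2, 23.4, 15.8 and 16.7 normalized counts in the P09 libraries, against 16.6, 3.79, 9.88 and 7.33 in the P01 libraries (log2 fold change 1.24 with a standard error of 0.34, adjusted p = 0.00473 from edgeR), with overlap between the groups. This rise was lost without P09 library 2 or P01 library 5, 6 or 8, at a log2 fold change of 0.94 to 1.25, and was not called by DESeq2. Replication-dependent histones, which cells make in S phase, fell in 19 of 49 cases (38.8%) and rose in 0, with a median of -0.83. Hist1h2bh, a core histone H2B gene, had 16.5, 27.2, 12.5 and 20.3 normalized counts in the P09 libraries, against 48.3, 58.8, 56.5 and 52.8 in the P01 libraries (log2 fold change -1.53 with a standard error of 0.21, adjusted p = 1.05e-06 from edgeR). Hist1h2ah, Hist1h3e and the linker histones Hist1h1d and Hist1h1c had -1.40, -1.35, -1.30 and -1.13. The summed level of all 70 listed histone genes, tested or not, was 1589.6 to 2125 at P09, 1911 to 2128 at P04 and 2989.8 to 3285 at P01, so that P01 lay apart from both. Histone genes have near-identical copies, among which the counting may have split reads. Under total counts 7 fell, with no filter 10, and without 1 library 13 to 21. The promoter of Hist1h2bh is shown for the CCAAT box shared by this family (minus strand, RefSeq, GRCm38.p6).
Hist1h2bh promoter, chr13:23543395-23543694: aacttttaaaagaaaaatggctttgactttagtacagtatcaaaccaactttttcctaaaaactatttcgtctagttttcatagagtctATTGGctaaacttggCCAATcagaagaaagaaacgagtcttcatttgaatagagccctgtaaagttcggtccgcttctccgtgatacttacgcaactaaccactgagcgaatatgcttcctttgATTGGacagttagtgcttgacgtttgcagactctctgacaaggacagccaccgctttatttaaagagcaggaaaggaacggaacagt
Capitals mark CCAAT on either strand, which occurs 3 times. It stood in a promoter of 38 of 45 tested histone genes with one (84.4%) and of 15 of 18 that fell, against 41.1% of 27025 genes.

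**Figure D4:**
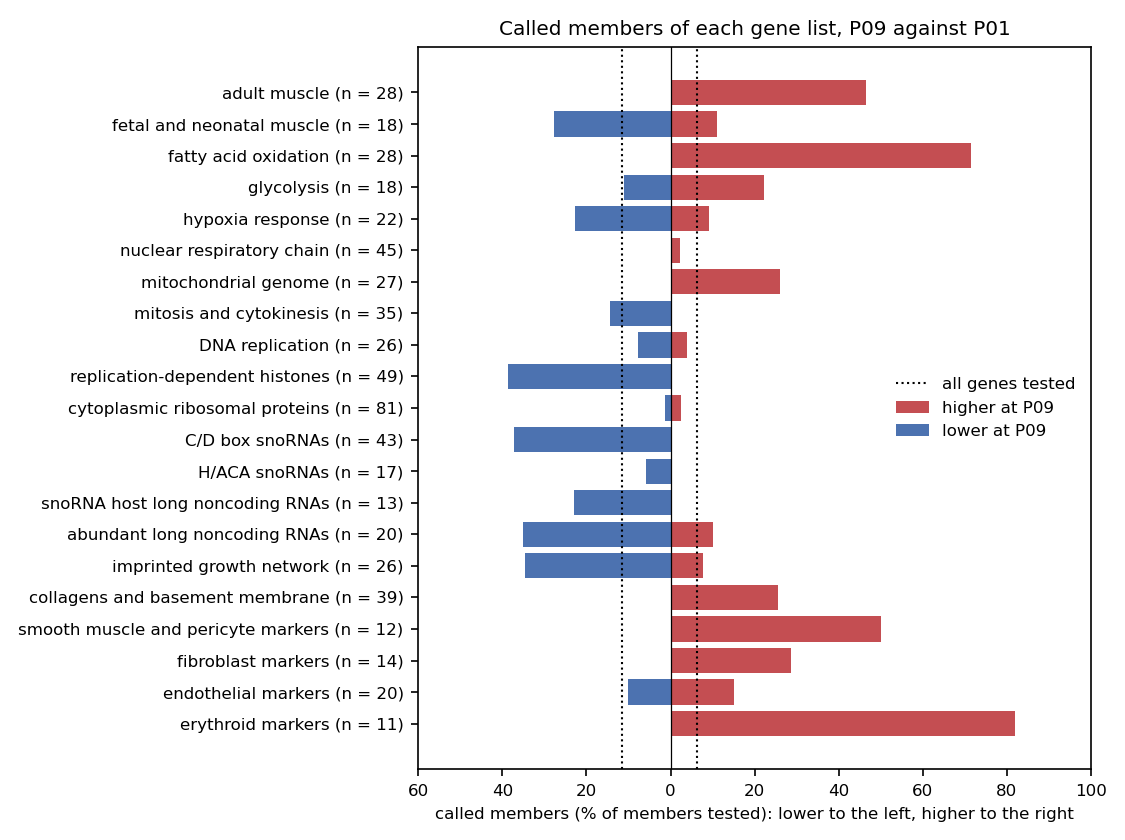
Called members of 21 gene lists as a percentage of the members tested (x axis), those higher at P09 to the right in red and those lower to the left in blue; dotted lines are all tested genes, 6.18% higher and 11.5% lower. Fatty acid oxidation has 71.4% of its members higher, erythroid markers 81.8%, replication-dependent histones 38.8% lower and C/D box snoRNAs 37.2% lower.

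The snoRNAs were lower as a class. Of 165 tested snoRNA and scaRNA genes 45 fell (27.3%) and 0 rose, with a median of -0.74, and P09 libraries lay under each P01 library for 93. Of 43 C/D box snoRNAs, which guide methylation of rRNA, 16 fell (median -0.75), and of 17 H/ACA snoRNAs, which guide pseudouridylation, 1 fell (median -0.59). Snord49a, with 15468, 20372, 18399 and 23658 normalized counts in the P09 libraries, against 40088, 38881, 39072 and 39258 in the P01 libraries, was the most abundant of those that fell (log2 fold change -1.01 with a standard error of 0.17, adjusted p = 1.52e-05 from edgeR). Snord65 had 4831, 7286, 6958 and 8793 normalized counts in the P09 libraries, against 15849.7, 16374, 17310.2 and 17128 in the P01 libraries (log2 fold change -1.26 with a standard error of 0.18, adjusted p = 1.90e-06 from edgeR). It lies with Snord49a and Snord49b in the noncoding gene 2410006H16Rik on chromosome 11. Gm22981 had the largest fall of the class among genes with 50 normalized counts (41.3, 57.1, 57.9 and 74.0 normalized counts in the P09 libraries, against 198, 182, 230.1 and 224 in the P01 libraries, log2 fold change -1.87). Gm23136, within the ribosomal protein gene Rpl4, had a log2 fold change of -1.67. DQ267102, within the imprinted noncoding gene Rian, had 44.6, 53.4, 63.2 and 70.5 normalized counts in the P09 libraries, against 166, 171, 224 and 172 in the P01 libraries (log2 fold change -1.67). Snord53, within Wdr43 on chromosome 17, had 59.1 ± 16.8 at P09, 98.0 ± 15.0 at P04 and 166 ± 23.7 at P01 (log2 fold change -1.49 with a standard error of 0.17, adjusted p = 1.76e-08 from edgeR), with steps of -0.75 and -0.74. Over the class the median step was -0.23 in P04–P01, with 1 fall, and -0.49 in P09–P04, with 4.

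Most of these snoRNAs lie within other genes. Of the 45 that fell, 38 overlap another gene, a share that was not compared with that of all 165 tested. Ribosomal protein genes hold 14 of the 45 and 28 of the 165. Of the 28 overlapping genes that could be tested, 2 fell and 0 rose, and their median log2 fold change was -0.22, with a range of -2.15 to 0.83. Snord34 and Snord35a in Rpl13a had -0.90 and -0.93 (-0.77 and -0.74 without P09 library 2, where neither was called), and Rpl13a itself had -0.26 (adjusted p = 0.448 from edgeR). Snord82 had -0.90, and its gene Ncl, nucleolin, -0.24 (adjusted p = 0.129 from edgeR). Other hosts were lower, with 2410002F23Rik, which was called, at -2.15. Rpl7a and Rian, at -0.83 each, and Nop58, at -0.51, stayed under the fold threshold (adjusted p = 0.00149, 1.01e-04 and 0.00817 from edgeR). Rps3a1, at 0.83, and Hspa9, at 0.43, were higher and also under it (adjusted p = 0.0092 and 0.00618 from edgeR). Snord87 and its noncoding host Snhg6 had -0.90 and -0.96, the call of Snhg6 being lost without P09 library 2 or 4 or P01 library 5 or 8, at a log2 fold change of -0.92 to -0.87. Those of Snord82 and Snord87 were lost without P09 library 2 as well (-0.81 and -0.78). The H/ACA member that fell was Snora41 (-1.12), whose call was lost without P09 library 2 or 4 or P01 library 5, 6 or 8, at a log2 fold change of -1.16 to -0.92. How reads over a snoRNA within its host were assigned is not given in the sources used here, so that host values may hold snoRNA fragments or lack them. The number of falls in the class depended on scaling, and 0 members rose under total counts. Of the 165 genes 17 fell under total counts, 27 with no filter and 28 without P09 library 2, and Snord49a, Snord49b, Snord34, Snord35a, Snord82 and Snord87 were not called under total counts. TMM over snoRNA genes alone sets their typical change near 0 by construction, so it cannot test their fall. It shifted the all-gene median by 0.80 and left 0 of the 43 C/D box snoRNAs called. Of these, 3 were called under total counts and 7 with no filter. Leaving out 1 library left 9 to 22.

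Small cytoplasmic and nuclear RNAs went in both directions, with 2 higher and 1 lower of 15, or 4 and 1 under total counts and with no filter on low counts. Rny3, a Y RNA bound by the Ro protein (chromosome 6, 47781624 to 47781724), had 26192, 22984, 25144 and 28432 normalized counts in the P09 libraries, against 11866, 12541, 13757 and 8110.1 in the P01 libraries, with no overlap (log2 fold change 1.15 with a standard error of 0.18, adjusted p = 4.38e-06 from edgeR). Its P04 mean of 12516 ± 508 was near that of P01, so that the rise lay in the P09–P04 step (1.04, against 0.11 in P04–P01). Rny1, its neighbour on chromosome 6, had 9499, 9653, 10652 and 11146 normalized counts in the P09 libraries, against 5729, 6319, 5955 and 5110.0 in the P01 libraries. Its log2 fold change of 0.83 (adjusted p = 8.07e-05 from edgeR) stood just under the fold threshold. Vaultrc5, the RNA of the vault particle, had 2393, 1926, 2586 and 2202 normalized counts in the P09 libraries, against 572, 565, 743 and 691 in the P01 libraries (log2 fold change 1.82 with a standard error of 0.16, adjusted p = 1.13e-10 from edgeR), with 1115 ± 129 at P04 and steps of 0.79 and 1.03. The fall was that of Rnu73b, with 828 ± 88.8 at P09 and 1849 ± 117 at P01 (-1.16). Rn7sk, which restrains transcription elongation (-0.13), Rpph1, the RNA of ribonuclease P (-0.43), and Rnu12, of the minor spliceosome (-0.50), did not reach both thresholds (adjusted p = 0.579, 0.0311 and 0.00309 from edgeR). Of the 130 genes classed as other small noncoding RNA, 3 rose, Rny3 among them, and 12 fell. Under total counts 5 rose and 6 fell, and without P09 library 2 4 rose and 6 fell. Gm25682 had 86.5, 50.6, 71.1 and 45.8 normalized counts in the P09 libraries, against 18.1, 28.4, 14.1 and 22.0 in the P01 libraries (log2 fold change 1.67), and Gm25313 also rose (1.11). Gm40190, whose span holds a tRNA and Mir760, had 21.5, 18.7, 24.4 and 16.7 normalized counts in the P09 libraries, against 156, 277, 199 and 218 in the P01 libraries (log2 fold change -3.36), and Gm26316 also fell (-1.69). Nuclear rRNA genes, of which 46 are annotated copies of 5S rRNA, fell in 15 and rose in 0 of 48 cases (median -0.78), or in 9 under total counts and 10 to 19 without 1 library, and reads of near-identical copies may have been split among them.

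Long noncoding RNAs fell more often than they rose, in 71 and 15 of 199 cases (35.7% and 7.54%), with a median of -0.57. Under total counts 57 fell and 19 rose. Zfas1, which hosts Snord12 snoRNAs (chromosome 2, 167062934 to 167065862), had 58.4, 61.8, 76.4 and 62.5 normalized counts in the P09 libraries, against 568, 917, 569 and 549.9 in the P01 libraries (log2 fold change -3.32 with a standard error of 0.23, adjusted p = 2.81e-09 from edgeR). Nearly all of this fall lay in P04–P01 (-3.01), with 80.5 ± 28.9 at P04 and a P09–P04 step of -0.31 (adjusted p = 0.42 from edgeR). Of 13 snoRNA host genes 3 fell and 0 rose, with Snhg1 at -1.09, Snhg6 at -0.96, Dancr at -0.86 and Gas5 at -0.43, the last 2 not called. Without 1 library 2 to 5 of the 13 fell, and under total counts 1, with Snhg1 and Snhg6 not called. B330016D10Rik had 159, 195, 208 and 132 normalized counts in the P09 libraries, against 1022, 1435, 1187 and 1152 in the P01 libraries (log2 fold change -2.79 with a standard error of 0.20, adjusted p = 3.44e-11 from edgeR). Gm27151, within Trpm3, had -3.28. Miat had 13.4 ± 2.95 at P09 and 71.0 ± 7.07 at P01 (log2 fold change -2.40 with a standard error of 0.25, adjusted p = 4.62e-09 from edgeR). Neat1, the scaffold of paraspeckles, had 213, 206, 195 and 171 normalized counts in the P09 libraries, against 122, 89.1, 117 and 86.5 in the P01 libraries (log2 fold change 0.92 with a standard error of 0.16, adjusted p = 2.85e-05 from edgeR). This rise was lost without P01 library 8, at a log2 fold change of 0.85. Malat1 had -0.30 (adjusted p = 0.109 from edgeR). Mhrt and Gm31251, which overlap Myh7, rose where Myh7 fell. Mhrt had 116, 94.6, 115 and 94.2 normalized counts in the P09 libraries, against 31.7, 55.0, 62.1 and 39.6 in the P01 libraries (log2 fold change 1.16 with a standard error of 0.17, adjusted p = 1.74e-06 from edgeR), and Gm31251 a log2 fold change of 1.55. The use of strand in counting is not given in the sources used here, so that reads of Myh7 and of these genes may have been mixed. D830005E20Rik, within Trdn, a gene of the calcium release complex, rose by 1.82.

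Genes listed as an imprinted growth network, many of which promote fetal growth, were lower in 9 and higher in 2 of 26 cases (34.6% and 7.69%, median -0.77). The list is not one of all imprinted genes, nor was the imprinting of each member checked. H19, a noncoding RNA of fetal tissue (chromosome 7, 142575530 to 142578146), had 96.5, 155, 134 and 159 normalized counts in the P09 libraries, against 779, 741, 913 and 819.7 in the P01 libraries (log2 fold change -2.58 with a standard error of 0.16, adjusted p = 1.29e-13 from edgeR), with 336 ± 13.2 at P04 and steps of -1.28 and -1.31. Igf2, the growth factor of the same locus, had 14.3, 5.62, 14.5 and 10.6 normalized counts in the P09 libraries, against 40.8, 36.0, 48.0 and 55.7 in the P01 libraries (log2 fold change -1.95 with a standard error of 0.25, adjusted p = 3.28e-07 from edgeR). Dlk1, a Notch-like membrane protein, had 10.5, 4.68, 6.58 and 7.93 normalized counts in the P09 libraries, against 71.0, 87.2, 63.5 and 83.6 in the P01 libraries (log2 fold change -3.29 with a standard error of 0.24, adjusted p = 3.88e-12 from edgeR). Cdkn1c, an inhibitor of cyclin-dependent kinases, Gpc3, a glypican that limits growth, Plagl1, a zinc finger regulator of this gene set, Mest and Peg10 had -1.94, -1.45, -1.23, -1.11 and -1.32. The call of Peg10 was lost without P09 library 4 or 5 or P01 library 6, at a log2 fold change of -1.22 to -1.01, and those of Mest and Peg10 were lost under total counts. Growth-promoting and growth-limiting members were thus both among the falls. Meg3, at -0.80, stood just under the fold threshold. The rises were Snrpn (1.13) and Dcn (0.99), which is also a fibroblast marker. In P04–P01 4 members fell and 2 rose, and in P09–P04 6 fell.

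Collagen and basement membrane genes were higher in 10 of 39 cases (25.6%) and lower in 0 (median 0.48). Lama2, the laminin chain of muscle basement membrane, had 212, 181, 226 and 137 normalized counts in the P09 libraries, against 57.4, 49.3, 57.9 and 57.2 in the P01 libraries (log2 fold change 1.76 with a standard error of 0.15, adjusted p = 1.66e-10 from edgeR). Fbn1, of elastic microfibrils, had 211, 181, 210.0 and 193 normalized counts in the P09 libraries, against 74.0, 47.4, 83.3 and 71.8 in the P01 libraries (log2 fold change 1.51 with a standard error of 0.15, adjusted p = 1.16e-09 from edgeR). Hspg2, or perlecan, Col15a1, Col4a2 and Lamc1, also of basement membrane, had 1.26, 1.22, 0.98 and 0.97, and the fibrillar Col3a1 0.86. Cthrc1 had 15.1 ± 6.41 at P09 and 4.79 ± 3.77 at P01, and its call was lost without P09 library 3, 4 or 5 or P01 library 5, 6 or 8, at a log2 fold change of 1.21 to 1.62. That of Col3a1 was lost without P09 library 3 or P01 library 5, at a log2 fold change of 0.80 to 0.83. Of 14 fibroblast markers 4 rose, Ddr2, Smoc2 and, shared with the matrix list, Col3a1 and Dcn. Under total counts 9 rose, and with no filter on low counts 6. The summed level of all 15 listed fibroblast markers was 3956 to 4489.6 at P09 and 2825 to 3415 at P01. The part of fibroblast number in the matrix genes was not tested.

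Rgs5, a regulator of G protein signalling in pericytes (chromosome 1, 169655501 to 169695813), had 422, 419, 404 and 344 normalized counts in the P09 libraries, against 75.5, 73.9, 60.7 and 60.1 in the P01 libraries (log2 fold change 2.56 with a standard error of 0.14, adjusted p = 2.33e-14 from edgeR). Its P04 mean was 144 ± 13.6, with steps of 1.09 and 1.47. Of 12 smooth muscle and pericyte markers 6 rose and 0 fell (median 0.87), among them Abcc9 and Kcnj8, which form a potassium channel of pericytes (1.41 and 1.28), Pdgfrb (0.97) and Notch3 (0.96). Abcc9 is also expressed by cardiomyocytes. Myh11, smooth muscle myosin, had 1.36, a call lost without P09 library 3 or 5 or P01 library 1, 5 or 6, at a log2 fold change of 1.07 to 1.43. The summed level of all 14 listed smooth muscle and pericyte markers was 1803 to 2107 at P09 and 1042 to 1139 at P01. Of 20 endothelial markers 3 rose and 2 fell (median 0.25), against 1 and 0 by DESeq2, 7 and 0 under total counts and 3 and 0 without P09 library 2, and their summed level was 1349.9 to 1675 at P09 and 1095 to 1261 at P01. Apln, the ligand of endothelial tip cells, had 21.5, 25.3, 27.6 and 38.8 normalized counts in the P09 libraries, against 3.02, 7.58, 11.3 and 4.40 in the P01 libraries (log2 fold change 2.06 with a standard error of 0.33, adjusted p = 8.36e-06 from edgeR). Its receptor Aplnr had 0.89 and the junction protein Cldn5 1.14, while Npr3, of fetal endocardium, had -1.17 and Plvap -1.41. The call of Aplnr was lost without P01 library 5, 6 or 8, at a log2 fold change of 0.79 to 0.90. That of Cldn5 was lost without P09 library 4 or 5 or P01 library 1, 5, 6 or 8, at a log2 fold change of 0.97 to 1.23. That of Npr3 was lost without P09 library 2 or P01 library 8, at a log2 fold change of -1.04 to -0.95. That of Plvap was lost without P09 library 2 or 4 or P01 library 1 or 5, at a log2 fold change of -1.29 to -1.21.

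Of 11 tested erythroid markers 9 rose and 0 fell (81.8%, median 1.28). In P09–P04 8 members rose (median 1.05), and in P04–P01 1 rose and 1 fell (median -0.03). The adult globin gene Hba-a1 had 48.5, 103, 75.7 and 115 normalized counts in the P09 libraries, against 18.1, 13.3, 38.1 and 30.8 in the P01 libraries (log2 fold change 1.71 with a standard error of 0.44, adjusted p = 0.00807 from edgeR). Its near-identical copy Hba-a2 had 2.14, with reads that may be shared. The call of Hba-a1 was lost without P09 library 3, 4 or 5 or P01 library 1, 5, 6 or 8, at a log2 fold change of 1.54 to 1.99. That of Hba-a2 was lost without P09 library 3, 4 or 5 or P01 library 1, 5 or 8, at a log2 fold change of 1.87 to 2.34. Without 1 library, 6 to 9 of the markers rose. Tfrc, the transferrin receptor that dividing and erythroid cells use to take up iron, had 217, 251, 236 and 234 normalized counts in the P09 libraries, against 31.7, 34.1, 32.5 and 23.5 in the P01 libraries (log2 fold change 2.94 with a standard error of 0.20, adjusted p = 2.79e-12 from edgeR). Unlike the globins it had also been higher at P04 (119 ± 12.4, P04–P01 log2 fold change 1.97). The summed level of all 19 erythroid markers with an entry, tested or not, was 3142 to 3958 at P09, 1109 to 1398 at P04 and 1677 to 1902 at P01. Hba-a1 and Tfrc made up a small part of this sum. How far cells other than erythroid cells gave reads of the listed markers was not tested. The embryonic globins Hbb-y, Hbb-bh1 and Hba-x had 0 counts in the 8 libraries. How far blood left in the ventricles moved other genes was not tested. Of 8 leukocyte markers Mrc1, a receptor of resident macrophages, rose (1.04) and C1qa, a complement subunit, fell (-1.34), with Cd3e at 0 in the 8 libraries. The call of Mrc1 was lost without P09 library 4 or P01 library 5 or 6, at a log2 fold change of 0.91 to 0.95. The summed level of all 26 listed leukocyte markers, tested or not, was 143 to 174 at P09 and 159.5 to 181 at P01. Of 13 immediate early genes, signs of handling stress, 0 were called by edgeR and 0 by DESeq2, and 5, all lower at P09, had an unadjusted p under 0.05 from edgeR.

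Tubulin isotypes moved in both directions. Tuba4a had 159.8, 140.5, 133 and 197 normalized counts in the P09 libraries, against 28.7, 20.8, 29.6 and 16.1 in the P01 libraries (log2 fold change 2.71 with a standard error of 0.19, adjusted p = 1.46e-12 from edgeR) and 96.9 ± 15.9 at P04. Tuba8, an alpha tubulin of muscle, had 69, 30, 49 and 37 counts in the P09 libraries and 1 count over the P01 libraries, a ratio of 86.2 with a 95% counting interval of 15.3 to 3424 (exact Clopper-Pearson). Tuba1c, an alpha tubulin of dividing cells, had 32.5, 43.1, 36.2 and 47.6 normalized counts in the P09 libraries, against 160.1, 182, 161 and 145 in the P01 libraries (log2 fold change -2.03 with a standard error of 0.15, adjusted p = 8.72e-12 from edgeR), lost mostly by P04 (-1.69). The other 8 tested tubulins were not called, and the list median was -0.07, which turned to 0.22 under total counts. Cytoplasmic ribosomal protein genes were called in 3 of 81 cases, among them higher for Rpl29 (1.10) and lower for Rps29 (-1.24), with a median of -0.23 (0.05 under total counts, with 5 higher and 1 lower). The call of Rpl29 was lost without P01 library 1, at a log2 fold change of 0.95. Cholesterol synthesis had 3 falls among 15, among them Pmvk (-1.76) and Fdps (-1.55), with means of 33.7 and 13.2 at P01, and a median of -0.27 (0.03 under total counts, with 3 higher and 2 lower). The call of Fdps was lost without P09 library 2 or P01 library 1 or 6, at a log2 fold change of -1.47 to -1.37.

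Some of the largest changes stood at loci whose libraries were uneven or that overlap another gene. Adamts4, a matrix protease gene that overlaps another gene, had 8019, 2355, 5834 and 9559.7 normalized counts in the P09 libraries, against 4.53, 11.4, 7.06 and 11.7 in the P01 libraries, so that the P09 libraries were uneven and all lay far above P01 (log2 fold change 9.53 with a standard error of 1.62, adjusted p = 5.06e-04 from edgeR). Its P04 mean was 1875 ± 1309. Lrtm1, a membrane protein gene of muscle within Cacna2d3, had 344, 419, 349 and 334 normalized counts in the P09 libraries, against 72.5, 56.9, 49.4 and 66.0 in the P01 libraries (log2 fold change 2.56 with a standard error of 0.17, adjusted p = 5.36e-13 from edgeR). Among the falls, Fer, a tyrosine kinase gene, had 137, 130.2, 142 and 109 normalized counts in the P09 libraries, against 933, 1056, 1261 and 1516 in the P01 libraries (log2 fold change -3.20 with a standard error of 0.18, adjusted p = 4.02e-14 from edgeR). Wnt7b, a Wnt ligand gene, had 48.0, 51.5, 42.8 and 52.0 normalized counts in the P09 libraries, against 473, 552, 472 and 428 in the P01 libraries (log2 fold change -3.31 with a standard error of 0.21, adjusted p = 4.30e-11 from edgeR). Both were even within each age. Mfsd11, which overlaps Srsf2, had 138, 30.0, 222 and 28.2 normalized counts in the P09 libraries, against 2464, 3097, 2492 and 2029 in the P01 libraries (log2 fold change -4.57 with a standard error of 0.77, adjusted p = 4.76e-04 from edgeR). Srsf2 had -0.09 (adjusted p = 0.694 from edgeR). Fcho2, of endocytosis, had 148, 88.0, 245 and 169 normalized counts in the P09 libraries, against 1969, 1359, 1033 and 1239 in the P01 libraries (log2 fold change -3.10 with a standard error of 0.44, adjusted p = 1.19e-04 from edgeR). Other large falls were uneven among the P01 libraries. Jph4 had 9.37, 14.0, 6.58 and 5.29 normalized counts in the P09 libraries, against 96.6, 553, 64.9 and 515 in the P01 libraries (log2 fold change -5.11). Adgrl1 had 66.1, 45.0, 38.8 and 67.8 normalized counts in the P09 libraries, against 121, 2020.4, 114 and 938 in the P01 libraries (log2 fold change -3.86). Both were highest in P01 libraries 5 and 8. Hp1bp3, with 87.6, 96.5, 85.6 and 84.6 normalized counts in the P09 libraries, against 143, 224, 206 and 2484 in the P01 libraries (log2 fold change -3.11), was high in P01 library 8. Gm23388 had 3.86, 3.75, 3.95 and 9.69 normalized counts in the P09 libraries, against 2299.6, 20.8, 53.6 and 1159.8 in the P01 libraries (log2 fold change -7.39), with the highest values in P01 libraries 1 and 8. The call of Jph4 was lost without P09 library 2, 3, 4 or 5 or P01 library 5 or 8, at a log2 fold change of -5.36 to -4.67. That of Hp1bp3 was lost without P09 library 2, 3, 4 or 5, at a log2 fold change of -3.15 to -3.09. That of Gm23388 was lost without P09 library 2, 3, 4 or 5 or P01 library 1 or 8, at a log2 fold change of -7.79 to -6.29. That of Adgrl1 was lost in a fit of the P09 and P01 libraries alone, at -3.91, and with sex as a covariate, at -3.48. With that covariate the calls of Jph4 and Hp1bp3 were lost too. Lars2, a gene of mitochondrial protein synthesis that overlaps Gm46137, had 1781, 2179, 2409 and 2927 normalized counts in the P09 libraries, against 11596, 11159.7, 13281 and 13000.1 in the P01 libraries, even within each age (log2 fold change -2.40 with a standard error of 0.19, adjusted p = 4.20e-11 from edgeR). Its P01 counts were above those of Myh6 (3142 to 3460). It is classed as protein-coding but was listed among abundant long noncoding RNAs. Whether these reads came from its mRNA was not tested.

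Of 206 tested miRNA genes 7 rose (3.40%) and 89 fell (43.2%), with a median of -0.80 and steps of -0.22 and -0.56. TMM over miRNA genes alone sets their typical change near 0 by construction, so it cannot test their fall as a class. It moved the median of all genes by 0.72 and left 23 rises and 32 falls among the miRNA genes. Under total counts 11 rose and 52 fell, and with no filter on low counts 10 and 67. Mature sequences of 5 with large changes among genes of 300 normalized counts are given from RefSeq (GRCm38.p6), 1 arm for each, although counts are per precursor gene, with the seed, bases 2 to 8, in capitals.
mmu-miR-351-5p: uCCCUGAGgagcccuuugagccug
mmu-miR-503-5p: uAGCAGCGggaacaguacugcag
mmu-miR-210-3p: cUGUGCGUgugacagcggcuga
mmu-miR-1983: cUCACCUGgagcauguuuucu
mmu-miR-6240: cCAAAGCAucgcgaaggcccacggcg
No seed is shared among these 5. Mir351 had 1229.7, 1084, 1288 and 1029 normalized counts in the P09 libraries, against 6659, 8493, 6169 and 6704 in the P01 libraries. Mir503, of the same X-linked cluster, had 174, 139.5, 161 and 152 normalized counts in the P09 libraries, against 681, 792, 663 and 638 in the P01 libraries. Mir210, known to respond to hypoxia, had 223, 195, 234 and 283 normalized counts in the P09 libraries, against 942, 1181, 827 and 817 in the P01 libraries. None of the 3 overlapped between the ages (adjusted p = 2.66e-12, 2.48e-10 and 2.50e-08 from edgeR). Mir1983, which overlaps a tRNA, had 147, 151, 139.6 and 190.3 normalized counts in the P09 libraries, against 695, 785, 625 and 633 in the P01 libraries. Mir6240 had 52.4, 55.3, 51.3 and 54.6 normalized counts in the P09 libraries, against 396, 493, 309 and 346 in the P01 libraries, lower by a log2 fold change of -2.85. Whether the reads at Mir1983 and Mir6240 came from mature miRNAs was not tested. Mir150, of lymphocytes, had 688, 473, 592 and 469 normalized counts in the P09 libraries, against 153, 169, 148 and 147 in the P01 libraries, and its P04 mean was already 579 (P09–P04 step -0.06). C430049B03Rik, the noncoding gene that holds Mir351 and Mir503, had a log2 fold change of -1.26, and Mir483, within Igf2, -1.66, beside -1.95 for Igf2.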

How the data were processed

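Small RNA libraries were made with the SMARTer smRNA-Seq kit from total RNA of ventricles, extracted with TRIzol, 1 library per animal and without molecular identifiers, so that counting intervals cover counting error only. The deposited file holds whole-number read counts per gene, not normalized, which the authors made from reads demultiplexed with bcl2fastq, trimmed with Trimmomatic, aligned with STAR to GRCm38.p6 and counted with featureCounts. The versions of these tools, and how strand, multiply mapped reads and overlapping genes were handled, are unknown, being not given in the sources used here. Libraries were grouped by the day in their column names, and the animal numbers there name them; 1 column of the table was not used.

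Of 53801 genes, 28484 had a count in the P09 or P01 libraries and 10742 passed the filter on low counts (filterByExpr, minimum count 10, minimum total 15). They were fitted with edgeR 4.0.16 (R 4.3.3, limma 3.58.1), TMM scaling and the robust quasi-likelihood test, in 1 fit over all 16 libraries with the 4 days as groups. Genes were called at a Benjamini-Hochberg adjusted p under 0.01 over all tested genes and a fold change over 1.8, and the standard error is the log2 fold change over the square root of F. Class shares, in percent of each library's count, were compared by a 2-sided exact permutation test. Gene classes and sequences came from RefSeq tables. Data for 9193 genes were simulated and fitted for the P09 and P01 libraries alone, and called by adjusted p without the fold threshold. There the test called 53 of 56 genes changed 4-fold, 27 of 58 changed 2-fold and 1 of 58 changed 1.5-fold, with 2 false calls. These figures thus do not describe the full calling rule. DESeq2 1.42.0, other scalings, filters, a common depth and fits without each library were run as alternatives, and a sex covariate was added after seeing the data. Tables and figures were made in Python 3.11.15.

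The gene lists and members were chosen with earlier results of these data known, and the pattern for cytoplasmic ribosomal proteins was corrected after values were seen. Genes were named by rule: the 10 largest rises and falls among called genes other than miRNA with 300 normalized counts and no overlap, the 3 largest each way in each noncoding class with 50 and in each list (where fewer than 2 were called, the 2 most abundant), and the 5 largest each way among miRNA genes with 300. Further list members and the genes in the plots were named after their values were seen. The replicates of a day are separate animals. Some genes that the rule named are not reported here.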

Additional observations from a re-analysis of the deposited data

Results flagged for a closer look

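Of 260 groups of 4 libraries checked, 18 held a library that stood apart from the other 3, where chance gives about 1 in 20, and no cause was tested. Of these, 17 are given here. P09 library 5 stood apart for Gm23388 (9.69 normalized counts, against 3.75 to 3.95 in the others), Ndufb10 (273, against 303 to 308), Cthrc1 (24.7, against 11.0 to 12.5), Snhg6 (26.4, against 17.6 to 18.7) and Aplnr (30.8, against 40.8 to 42.1). P01 library 5 stood apart for Zfas1 (917, against 550 to 569), Ucp3 (3.79, against 1.41 to 1.51), Lama2 (49.3, against 57.2 to 57.9) and Tuba8 (1.90, against 0 in the others). P01 library 6 stood apart for DQ267102 (224, against 166 to 172), Car9 (55.1, against 64.5 to 66.3) and Jun (28.2, against 69.5 to 76.2), and P01 library 8 for Hp1bp3 (2484, against 143 to 224) and mt-Th (2.93, against 0 in the others). Sex-linked genes stood apart in single libraries too, with Xist at 545 in P09 library 3 (0 to 1.10 in the others), Xist at 1.51 in P01 library 1 (557 to 586 in the others) and Ddx3y at 66.4 in P01 library 1 (0 to 7.33 in the others).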

How the results depend on the processing

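No paired analysis was possible because the columns carry animal numbers rather than the replicate numbers of the labels, and P09 and P01 share number 5 alone. Against 664 higher and 1231 lower genes, the number higher was 1089 with no filter on low counts and 1421 with total counts without TMM, and these settings shifted the all-gene median by 0.16 and 0.30 (log2). TMM over miRNA genes alone gave 3766 higher and 583 lower, and TMM over snoRNA genes alone 4055 and 497. The counts under the remaining settings stayed within 1.5 times, with 525 higher and 1332 lower by DESeq2 and 572 and 1089 with sex as a covariate, which shared 1603 of the 1895 calls. Without 1 library the counts were 601 to 678 higher and 1130 to 1263 lower. The ratio of shares was 1.20 to 1.26 for mitochondrial rRNA, 1.30 to 1.37 for mitochondrial tRNA, 2.61 to 2.96 for mitochondrial mRNA and 0.673 to 0.748 for snoRNA without 1 library, with an exact permutation p = 0.0571, the smallest that 3 libraries against 4 allow. None of the 150 called genes named here reversed direction over the 19 alternatives. Of these 150, 32 lost their call without some 1 library, 20 under total counts, 16 with no filter on low counts, 15 with sex as a covariate, 15 in libraries thinned to 1 depth, 14 by DESeq2 and 14 in a fit of the P09 and P01 libraries alone. TMM over miRNA or snoRNA genes alone moved all genes by 0.72 and 0.80. Under either or both, the medians of the lists for mitosis, fetal muscle, the imprinted growth network, atrial markers and snoRNAs turned positive. Under total counts, so did those for DNA replication, cholesterol synthesis, hypoxia, immediate early genes, tubulins, small RNAs and ribosomal proteins. Scaling by miRNA or snoRNA genes sets the typical change of that class near 0, so it cannot test the fall of that class. P01 depth limits genes of few counts, and changes of 1.5-fold were mostly missed in simulated data, which were called without the fold threshold.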
